A study of Homo sapiens with 12 samples.

Results

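The miRNA miR-31 was followed through 12 small RNA libraries of AsPC-1 and PANC-1, which are cell lines of pancreatic ductal adenocarcinoma (PDAC). Its members were chosen by name, as the entries hsa-mir-31-5p and hsa-mir-31-3p, which are 2 of the 1733 miRNA entries counted in at least 1 library. AsPC-1 was derived from ascites and PANC-1 from a primary tumour of the pancreas, and each line comes from a single patient. Each line was represented by 3 control libraries and 3 libraries of cells transfected with siRNA against MYEOV, a gene of chromosome 11 found overexpressed in several cancers. The labels place the preparation of the small RNAs 48 h after transfection, whereas the study's methods give an earlier harvest and another sequencing instrument. The controls are named WT and described as untreated in the sample labels, although the transfection protocol lists a negative control siRNA, so which of these the control cells received is not settled here. The labels number the knockdown libraries 1 to 3, and the protocol also numbers its MYEOV siRNAs, so the number, read here as a replicate, may name the siRNA, in which case knockdown libraries of a group received different reagents. Nothing in the labels says that libraries of a group came from separate cultures. All p-values thus rest on the spread between these libraries, which may be technical. Those from edgeR draw on the spread of all miRNAs tested, not on that of miR-31 alone. The small RNA counts do not measure the MYEOV transcript, and the knockdown itself could not be checked in them.

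A miRNA is cut from a hairpin precursor, first by Drosha and then by Dicer. The strands of the resulting duplex are named 5p and 3p after the arm of the hairpin from which they come, and usually 1 of them is loaded into an Argonaute protein in preference while most of the other is degraded. The loaded strand recognizes its target mRNAs mainly through the seed, bases 2 to 8. MiR-31 is known for context-dependent roles in cancer: it restrains metastasis-related genes in some settings and accompanies growth in others. Its hairpin lies in a region of chromosome 9 that is often lost in tumours together with CDKN2A, the gene of the cell cycle inhibitors p16 and p14ARF, and PANC-1 is known to carry a homozygous deletion of CDKN2A. The counts hold no DNA copy number, so the state of CDKN2A was not measured here.

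The miR-31-5p sequence is shown because nearly all miR-31 reads were assigned to it, and the hairpin because the ratio of its arms differed between the lines. In the RefSeq table, built on GRCh38.p14, the mature strand lies at chr9:21512158-21512178 on the minus strand, and the hairpin at chr9:21512115-21512185 on the same strand. Capitals mark the seed in the mature strand and the whole of miR-31-5p in the hairpin.
hsa-miR-31-5p: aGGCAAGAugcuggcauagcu
MIR31 hairpin: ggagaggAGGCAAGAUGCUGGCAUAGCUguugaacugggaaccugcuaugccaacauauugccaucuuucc
MiR-31-3p is named only. Of the 2370 mature miRNAs in the RefSeq table, 1 carried the seed of miR-31-5p, which was miR-31-5p itself. In the predicted fold of the 71-base hairpin, 17 of the 21 bases of miR-31-5p were paired.

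In GRCh37, the build to which the authors mapped their reads, each of the mature strand and the hairpin had 1 exact match in the genome. The hairpin lies at chr9:21512114-21512184 on the minus strand, inside MIR31HG, the long non-coding host gene at chr9:21380072-21559890. Of 27 annotated MIR31HG transcripts, 21 span the hairpin, and in all 21 it falls in intron 1 and touches no exon. CDKN2A, at chr9:21967751-21995300, begins 455.6 kb from the hairpin, and MTAP, a metabolic gene often lost with it, begins 290.5 kb away between them. CDKN2B, which encodes a further cell cycle inhibitor, lies 490.7 kb away beyond CDKN2A.

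The libraries held 3805084 to 7311783 counted reads and listed 1014 to 1144 miRNAs each. AsPC-1 libraries were deeper than PANC-1 libraries, and every AsPC-1 knockdown library was smaller than every AsPC-1 control library. A limit of 3 reads corresponds to 0.410 to 0.788 CPM (reads of a miRNA scaled to a library of 1e+06 counted reads). The AsPC-1 control library 1 stood apart: the chi-square per degree of freedom between its counts and those of the other AsPC-1 controls was 112.6 and 92.6, against 11.8 between those 2. Sums of marker miRNAs differed between the lines. The 5 epithelial markers of the miR-200 family summed to 48680 to 52670 CPM in AsPC-1, against 212.1 to 276.3 CPM in PANC-1, the 4 fibroblast and smooth muscle markers to 4.24 to 5.63 and 60.2 to 71.5 CPM, and the 2 counted muscle markers of 3 listed to 0.684 to 1.54 and 127.2 to 177.0 CPM. Blood markers (5 of 5 counted) stayed at or below 6.44 CPM, the 1 liver marker at or below 10.8 CPM and the 3 acinar markers at or below 0.509 CPM in all libraries. The part of these marker differences in the values below was not tested.

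MiR-31 was present in both lines, and both of its arms were counted in all 12 libraries. The AsPC-1 control libraries held 45373, 40705 and 38983 reads of miR-31-5p, and the AsPC-1 knockdown libraries 36693, 39146 and 38111. The PANC-1 control libraries held 18320, 19422 and 12373 reads, and the PANC-1 knockdown libraries 15793, 14163 and 15442. Every AsPC-1 library was thus above every PANC-1 library in raw reads, and the lowest count was 4124 times the limit of 3 reads. As a share of all counted reads, miR-31-5p made up 0.533% to 0.702% in libraries of AsPC-1, against 0.313% to 0.436% in those of PANC-1. It ranked between 29th and 37th among the miRNAs of an AsPC-1 library and between 37th and 48th in a PANC-1 library.

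The other arm, miR-31-3p, was much less abundant. Its reads numbered 727, 615 and 669 in the AsPC-1 controls and 486, 585 and 483 in the AsPC-1 knockdown libraries. In PANC-1 they numbered 640, 585 and 475 in the controls and 461, 470 and 556 after knockdown. The raw reads of miR-31-3p therefore overlapped between the lines, and the lowest of the 12 counts was 153.7 times the limit of 3 reads. In CPM the order was reversed relative to that of miR-31-5p, with 81.9 to 112.5 in libraries of AsPC-1, against 112.7 to 152.4 in those of PANC-1, before any scaling between libraries. By this unscaled measure the lines no longer overlapped, but the gap between 112.5 and 112.7 CPM was small beside the spread within each group.

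**Figure D1:**
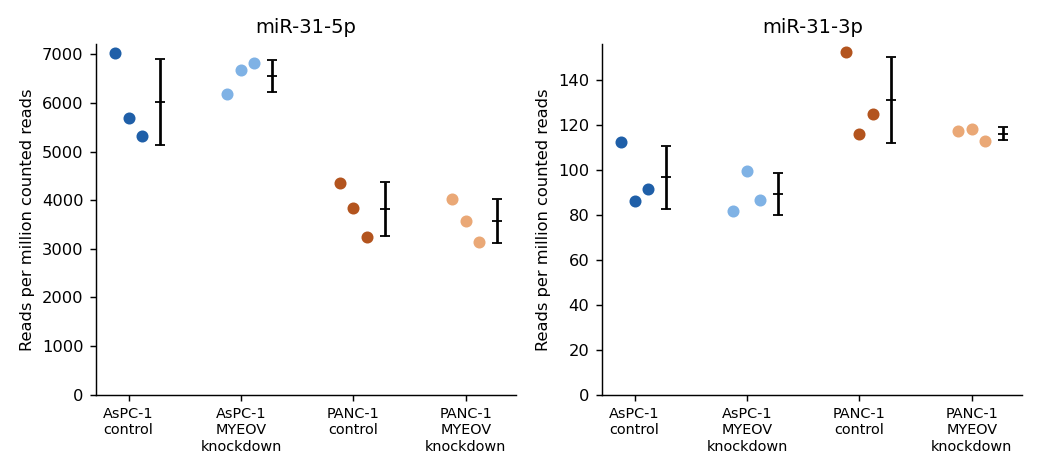
Reads of miR-31-5p (left) and miR-31-3p (right) in CPM of all counted reads, before scaling between libraries, in the 4 groups; each point is a library, and the black bar is the mean ± SD (n = 3). All AsPC-1 points of miR-31-5p lie above all PANC-1 points, between 5332 and 7020 CPM against 3131 to 4363 CPM, whereas the points of miR-31-3p are lower in AsPC-1 than in PANC-1.

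In order of the unscaled group means, miR-31-5p was at 6559 ± 334 CPM in AsPC-1 knockdown, 6016 ± 888 CPM in AsPC-1 control, 3820 ± 556 CPM in PANC-1 control and 3572 ± 444 CPM in PANC-1 knockdown libraries (SD, n = 3 each). The neighbours in that order that come from the same line overlapped. The order of miR-31-3p was PANC-1 control at 131.0 ± 19.1 CPM, PANC-1 knockdown at 116.1 ± 2.97 CPM, AsPC-1 control at 96.7 ± 13.9 CPM and AsPC-1 knockdown at 89.4 ± 9.27 CPM, again with overlap between the neighbours of each line.

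AsPC-1 was first compared with PANC-1 in the control libraries, using edgeR, after scaling by the trimmed mean of M values (TMM), a weighted mean of log ratios between libraries after the extreme miRNAs are set aside. On that scale, miR-31-5p stood at 7710, 6491 and 6058 CPM in the AsPC-1 controls and at 3736, 3421 and 3008 CPM in the PANC-1 controls, and the groups did not overlap. It was higher in AsPC-1 by a log2 fold change (LFC) of 0.99 (SE 0.11, 95% interval 0.75 to 1.24), a 1.99-fold difference. The adjusted p was 1.28e-06 in edgeR's quasi-likelihood test. Its size depended on the scaling: the LFC was 1.92 with upper-quartile factors and 0.65 with total counts alone. The lines differed in most miRNAs: 519 of 627 tested passed the threshold of 0.05, a background of 82.8%, and 61.6% of those tested had a larger absolute LFC than miR-31-5p. The difference in miR-31-5p was thus an ordinary one between these lines.

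The 3p strand of the same hairpin did not pass the test between the lines. After TMM scaling it stood at 108.5 ± 13.3 CPM in AsPC-1 controls, against 116.3 ± 13.8 CPM in those of PANC-1 (SD, n = 3), and the groups overlapped. The LFC was -0.10 (SE 0.13, 95% interval -0.37 to 0.17, adjusted p = 0.469 in edgeR), an interval that leaves room for a difference in either direction. Its sign and call depended on the scaling: upper-quartile factors gave 0.82 (adjusted p = 3.94e-06) and total counts alone gave -0.44 (adjusted p = 0.00887). These scalings moved the median LFC of all tested miRNAs by 0.92 and -0.34, respectively. The median was -0.27 under TMM. Relative to it, the LFC was 1.26 for miR-31-5p and 0.17 for miR-31-3p under TMM, and it remained within 1.26 to 1.28 and 0.16 to 0.18 under the other scalings of the same control libraries and in the fit over all 12 libraries. Among the 388 miRNAs with at least 10 counts in every control library, the values relative to the median were 0.93 and -0.17. In such bulk RNA, a miRNA carried by fewer cells cannot be told apart from one at a lower level in each cell.

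The knockdown libraries, which share no library with the controls, gave values of the same kind. There, TMM-scaled miR-31-5p stood at 7164 ± 628 CPM in AsPC-1, against 3272 ± 327 CPM in PANC-1 (SD, n = 3). The LFC was 1.13 (SE 0.08, 95% interval 0.97 to 1.29, 2.19-fold, adjusted p = 3.78e-43 in edgeR). Leaving out single libraries gave 1.09 to 1.22, with adjusted p from 3.6e-62 to 3.9e-08 in edgeR, so the size of p is not read further. Upper-quartile factors gave an LFC of 1.97 for miR-31-5p, and total counts 0.88. MiR-31-3p stood at 97.8 ± 14.6 and 106.6 ± 1.29 CPM, with an LFC of -0.13 (95% interval -0.31 to 0.06, adjusted p = 0.209 in edgeR). The background in this comparison was 85.9%, or 523 of 609 miRNAs tested. The sign and call for miR-31-3p again depended on the scaling, with 0.72 under upper-quartile factors (adjusted p = 1.23e-12) and -0.38 with total counts (adjusted p = 0.000211, both in edgeR). It was -0.01 without AsPC-1 knockdown library 1 and -0.21 without AsPC-1 knockdown library 2, neither of them called.

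Set among the extremes of the lines, miR-31 was moderate. Of 163 miRNAs with at least 100 unscaled CPM in the AsPC-1 controls, miR-31-5p ranked 65th by its ratio of AsPC-1 to PANC-1, at 1.58. The 10 highest ratios ran from 177.2 for miR-582-5p to 2303 for miR-224-5p, and between them stood miR-452-5p, miR-215-5p, miR-194-5p, miR-192-5p and 4 epithelial miR-200 family members (miR-200c-3p, miR-141-3p, miR-429 and miR-200a-3p). Of 220 miRNAs with at least 100 CPM in the PANC-1 controls, miR-31-3p ranked 133rd by the opposite ratio, at 1.35. The 10 highest there ran from 1266 for miR-758-3p to 4734 for miR-370-3p, the others being both arms of miR-493 and of miR-409, miR-127-3p, miR-381-3p, miR-889-3p and miR-654-3p, all from the imprinted cluster of chromosome 14.

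The ratio of the arms, miR-31-5p over miR-31-3p, was compared next, since both counts come from the same library and the ratio needs no scaling. It was 62.4, 66.2 and 58.3 in the AsPC-1 controls and 28.6, 33.2 and 26.0 in the PANC-1 controls, so that the lowest AsPC-1 value exceeded the highest PANC-1 value. After knockdown it was 75.5, 66.9 and 78.9 in AsPC-1, against 34.3, 30.1 and 27.8 in PANC-1, again without overlap. Expressed as a share of miR-31 reads, miR-31-3p made up 1.25% to 1.69% in the AsPC-1 libraries, with Wilson 95% intervals lying within 1.15% to 1.82%. It made up 2.84% to 3.70% in the PANC-1 libraries, with intervals within 2.59% to 4.04%. The intervals of the lines did not meet. They cover counting error only, as the reads carry no molecular identifiers.

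**Figure D2:**
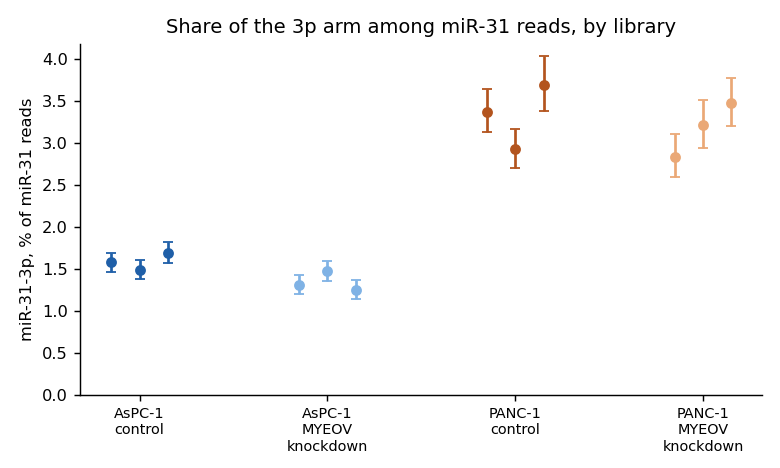
Reads of miR-31-3p as a percentage of all miR-31 reads in each of the 12 libraries, by group; points are libraries and bars are Wilson 95% intervals of counting error. All 6 AsPC-1 libraries lie at or below 1.69%, and all 6 PANC-1 libraries at or above 2.84%.

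On the log2 scale, the arm ratio was 5.96 ± 0.09 in AsPC-1 controls, against 4.86 ± 0.18 in those of PANC-1 (SD, n = 3), a difference of 1.09 (SE 0.11) or 2.13-fold. The two-sided exact permutation p was 0.1, the smallest that 3 libraries against 3 can give. In the knockdown libraries the difference was 1.27 (SE 0.11), or 2.40-fold, with the same exact p of 0.1. Over all 12 libraries, with line labels permuted within treatment, the difference was 1.18, or 2.27-fold, with an exact two-sided p of 0.005, the smallest of the 400 arrangements. Same-numbered control libraries of the lines deviated together over the more abundant miRNAs, although an other-numbered pair also correlated at 0.190. Paired by number, the arm ratios of the lines differed by 1.12, 1.00 and 1.16, with a mean of 1.09 (SE 0.05). Swapping labels within these pairs gave an exact two-sided p of 0.25, the smallest of 8 arrangements, and 0.0125 over all 12 libraries, the smallest of 160. The tests over 12 libraries and within pairs were chosen after the data had been seen.

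Arm ratios that separated the lines were common. Arms were paired by name here, so a name shared by several hairpins pools their reads. Among 78 hairpins with at least 20 reads of each arm in all control libraries, 38 had ratios that did not overlap between the lines, a background of 48.7%. In the knockdown libraries 50 of 79 did so, or 63.3%, and 26 of the 76 hairpins measured in both sets, or 34.2%, were apart in both and in the same direction. By size, miR-31 was 8th of the 78 in the controls. The 7 hairpins with a larger absolute difference included mir-671 at 1.34, mir-361 at -1.32, mir-106b at 1.27, mir-27a at -1.23 and mir-29a at -1.22. Larger differences were also found for 7 of 79 hairpins in the knockdown libraries. The median absolute difference over all hairpins was 0.37 in the controls, and the median difference was 0.05, so the ratios of the lines were not displaced as a whole towards either arm. These hairpins, like miR-31, were counted with a rule that keeps only reads sharing the 5′ end of the most abundant sequence, and ligation during library preparation favours some ends. The part of isomiRs and of ligation in the arm ratio was not tested.

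**Figure D3:**
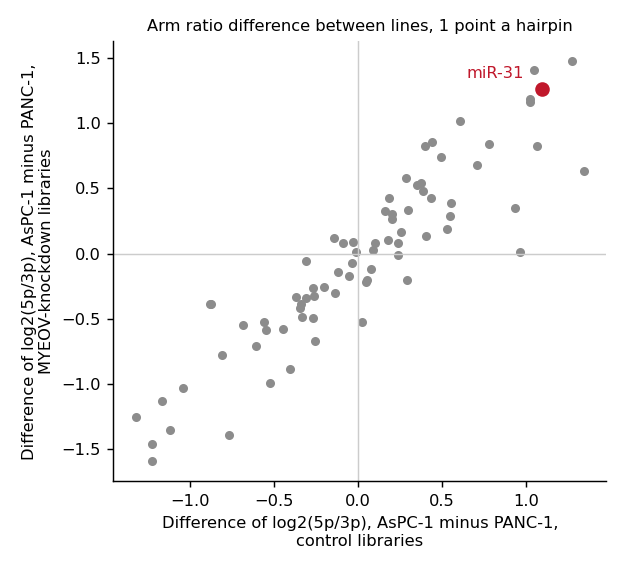
Difference between AsPC-1 and PANC-1 in the log2 ratio of 5p to 3p reads, in the control libraries (horizontal axis) and in the MYEOV-knockdown libraries (vertical axis); each point is 1 of the 76 hairpins measured in both, and miR-31 is in red. MiR-31 lies in the upper right, at 1.09 and 1.27.

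The effect of MYEOV knockdown on miR-31 was then examined within each line. In AsPC-1, miR-31-5p stood at 6709, 5760 and 5452 TMM-scaled CPM in the controls and at 6324, 6552 and 6885 in the knockdown libraries. The control library that stood apart was the highest of the controls, and the groups overlapped through it. The LFC, knockdown minus control, was 0.14 (SE 0.09, 95% interval -0.05 to 0.33), with an adjusted p of 0.333 in edgeR, and was not called. In this comparison 57 of 498 miRNAs passed, a background of 11.4%, and 62.2% of those tested had a larger absolute LFC. Without AsPC-1 control library 1, the LFC of miR-31-5p was 0.24 with an adjusted p of 0.00169 in edgeR, and 102 of 505 miRNAs passed. No other omission of a single library brought a call for miR-31-5p. The background fell to 24 of 519 without AsPC-1 knockdown library 1 and to 31 of 515 without knockdown library 3.

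MiR-31-3p in AsPC-1 was at 107.5, 87.0 and 93.6 TMM-scaled CPM in the controls and 83.8, 97.9 and 87.3 after knockdown. These ranges overlapped. The LFC was -0.10 (SE 0.11, 95% interval -0.33 to 0.13, adjusted p = 0.594 in edgeR), and leaving out any single library gave values from -0.17 to -0.0014, none of them called.

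In PANC-1, miR-31-5p stood at 4031, 3648 and 3201 TMM-scaled CPM in the controls and at 4111, 3726 and 3403 after knockdown. The ranges overlapped over most of their length. The LFC was 0.05 (SE 0.09, 95% interval -0.14 to 0.23, adjusted p = 0.760 in edgeR), although 121 of 551 miRNAs passed in this comparison, a background of 22.0%. With total counts alone it was -0.10, as this scaling moved the median LFC of all miRNAs by -0.15. For miR-31-3p the controls were at 140.8, 109.9 and 122.9 CPM and the knockdown libraries at 120.0, 123.6 and 122.5, inside the control range. Its LFC was -0.03 (SE 0.10, 95% interval -0.24 to 0.18, adjusted p = 0.879 in edgeR).

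In these fits within a line, the intervals reached 0.33 for miR-31-5p and -0.33 for miR-31-3p, both in AsPC-1, or 1.25-fold and 0.796-fold. In a fit of the 4 groups over all 12 libraries, the changes in AsPC-1 were 0.04 (SE 0.11, adjusted p = 0.905 in edgeR) for miR-31-5p and -0.20 (SE 0.12, adjusted p = 0.341 in edgeR) for miR-31-3p, while the median LFC of all miRNAs moved by -0.10 between the fits. Relative to the median of each fit, the changes were 0.15 and 0.11 for miR-31-5p and -0.09 and -0.12 for miR-31-3p. The change on knockdown was also compared between the lines over all 12 libraries. The change in AsPC-1 minus that in PANC-1 was -0.01 (95% interval -0.32 to 0.30, adjusted p = 1.00 in edgeR) for miR-31-5p and -0.17 (95% interval -0.52 to 0.18, adjusted p = 0.724 in edgeR) for miR-31-3p. The latter lay between -0.28 (without AsPC-1 control library 2) and -0.04 (without PANC-1 control library 2) when single libraries were left out, and was called in none of these fits. For miR-31-5p such omissions gave -0.084 to 0.11 and total counts gave 0.22, again without a call, so its sign is not settled. The background in this comparison was 2 of 650 miRNAs, or 0.308%.

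**Figure D4:**
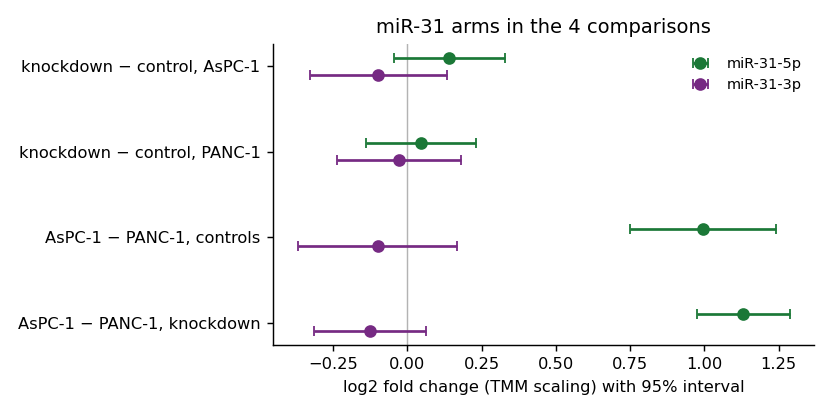
Log2 fold changes of miR-31-5p and miR-31-3p with 95% intervals from edgeR, for the knockdown in each line and for AsPC-1 minus PANC-1 in control and in knockdown libraries (3 libraries a group). The intervals of miR-31-5p between the lines lie above 0, from 0.75 upwards, and the other 6 intervals include 0.

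The arm ratio moved little on knockdown. In AsPC-1 the log2 ratio was 5.96 ± 0.09 in the controls and 6.20 ± 0.12 after knockdown (SD, n = 3), a difference of 0.24 (SE 0.09, 1.18-fold), and the groups did not overlap. The exact two-sided permutation p was 0.1, the smallest possible. Ratios that did not overlap were found for 32 of 98 hairpins in this comparison, a background of 32.7%, and 49 of the 98 hairpins differed by more than miR-31, so the change was of a usual size. In PANC-1 the difference was 0.07 (SE 0.13, exact p = 0.6), the groups overlapped, and the background was 34.2%, or 40 of 117 hairpins. The changes of the lines differed by 0.17 on the log2 scale, with an exact p of 0.37 when knockdown labels were permuted within lines.

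All other miRNAs of the short arm of chromosome 9 except miR-101-3p had at most 12 reads in any library. Of 13 named hairpin genes annotated there in GRCh37, 9 had a counted miRNA, giving 11 miRNAs other than miR-31. The nearest, miR-491-5p, whose hairpin lies 0.796 Mb from that of miR-31 on the telomere side, had 6 to 12 reads in the AsPC-1 controls, 4 to 7 in the AsPC-1 knockdown, 4 to 9 in the PANC-1 controls and 2 to 7 in the PANC-1 knockdown libraries. Between the lines its LFC in the controls was 0.02 (95% interval -0.90 to 0.94, adjusted p = 0.960 in edgeR), so a difference was not detectable at this depth. MiR-4473, from 1.10 Mb away on the same side, had 3 to 6 reads in the PANC-1 libraries and 0 to 1 in the AsPC-1 libraries. MiR-491-3p, miR-4474-3p, miR-3152-5p, miR-873-5p, both arms of miR-4667, miR-4665-5p and miR-101-5p had at most 5 reads in any library. The name of miR-101-5p matches 2 annotated hairpins, 1 of them on another chromosome, so its reads may not come from this arm. Both arms of miR-31 were thus more abundant than each of these 10 miRNAs in all libraries.

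MiR-101-3p, which acts on the histone methyltransferase EZH2, was the 1 other miRNA of this arm with 20 or more reads in a library, and its counts lay between those of miR-31-5p and miR-31-3p. It is made from 2 hairpins, of which the one on this arm lies 16.7 Mb from that of miR-31 and the other on another chromosome, and the counts do not tell them apart. Its counts ran from 6030 to 8830 in AsPC-1, against 2474 to 3906 in PANC-1. It was higher in AsPC-1 controls by an LFC of 1.18 (SE 0.16, adjusted p = 9.75e-06 in edgeR). On knockdown its LFC was 0.35 in PANC-1 (SE 0.12, adjusted p = 0.0286) and -0.10 in AsPC-1 (SE 0.08, adjusted p = 0.476). In the separate fit over all 12 libraries, the change in AsPC-1 minus that in PANC-1 was -0.55 (adjusted p = 0.118 in edgeR), which did not pass.

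**Figure D5:**
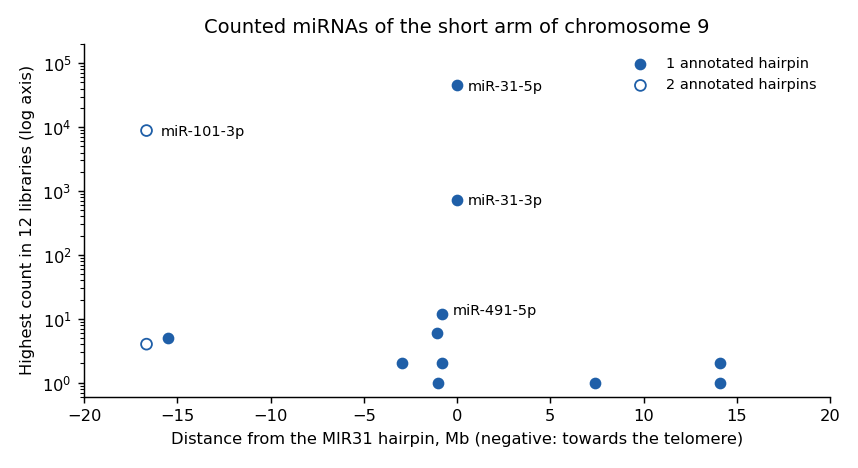
Highest count in the 12 libraries (log axis) of each counted miRNA of the short arm of chromosome 9, against the distance of its hairpin from that of miR-31 in Mb; open circles are miRNAs with 2 annotated hairpins. The arms of miR-31 reach 45373 and 727 reads, the nearest neighbour miR-491-5p reaches 12, and miR-101-3p, with a hairpin elsewhere, reaches 8830.

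The miRNAs whose profiles were most like that of miR-31-5p were sought among 447 miRNAs with at least 10 CPM in some group, by the root mean square difference of centred log2(CPM + 1) values. Over the 12 libraries, the nearest was miR-27a-3p at 0.140, followed by miR-374b-5p at 0.174, let-7b-5p at 0.176, miR-548ae-5p at 0.180 and miR-26b-5p at 0.182. The partner strand miR-31-3p was 143rd, at 0.605. Over the 6 AsPC-1 libraries, the nearest were miR-576-5p, miR-181a-5p, miR-18a-3p, miR-29a-3p and miR-1197, from 0.0439 to 0.0690. MiR-1197 was below 0.2 CPM on average in both AsPC-1 groups and entered through its level in PANC-1. MiRNAs near 0 in AsPC-1 have flat profiles there, so the order within AsPC-1 is not read further.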

How the data were processed

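Small RNA libraries of AsPC-1 and PANC-1 cells, 3 control and 3 MYEOV knockdown libraries of each line, were grouped by the sample labels. The authors trimmed adapters, mapped the reads to hg19 with Bowtie (version not given in the sources used here), retained reads of miRNA length without mismatch, and deposited raw counts per mature miRNA. These count the most abundant sequence of a miRNA and those sharing its 5′ end. Entries absent from a library were set to 0.

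From these counts, comparisons were made with edgeR 4.0.16 in R 4.3.3 (filterByExpr with a minimum count of 10, TMM factors, quasi-likelihood F test, two-sided), with Benjamini-Hochberg adjustment over all miRNAs tested and a threshold of 0.05. DESeq2 1.42.0, other scalings and filters, and fits leaving out each library were alternatives. Arm ratios were log2 of 5p over 3p counts, each plus 0.5, for hairpins with at least 20 reads of each arm in every library, and were tested by exact permutation over libraries. Depth was 3805084 to 7311783 counted reads a library. Both procedures were tested on simulated data. Distances and introns came from GRCh37 and GENCODE 44, mapped by GENCODE to that build, sequences from RefSeq (1 of the 2 members had a mature entry), and the fold from RNAfold 2.7.2.

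The named miRNAs were both arms of miR-31, every counted miRNA with a hairpin on the short arm of chromosome 9 (start below 47 Mb), the 5 nearest profiles to miR-31-5p over all libraries and over those of AsPC-1, and the 10 largest ratios between the lines in each direction, from mean control CPM plus 0.5. The 5 further hairpins were named by the size of their arm ratio difference after their values were seen. The members and lists were chosen with earlier results of these data known. Replicate numbers are shared between groups in the labels. Over miRNAs with a mean of at least 10 CPM, deviations of same-numbered control libraries of the lines correlated at 0.434, 0.208 and 0.320. Each was above 0.1, so these libraries were taken as paired. Of the other-numbered pairs, AsPC-1 control library 2 with PANC-1 control library 3 was highest, at 0.190. This is also above 0.1, so the pairing is uncertain. A fit of the control libraries with the replicate number as a block was added after seeing the data. It gave an LFC of 0.99 between the lines for miR-31-5p (adjusted p = 1.43e-07 in edgeR). The block changed the call of neither arm, while 537 miRNAs were called against 519.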

Additional observations from a re-analysis of the deposited data

How the results depend on the processing

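Of 160 alternative values of miR-31-5p and miR-31-3p, 134 kept the direction of the main value and its side of the threshold. Only the miR-31-5p differences between the lines had a call to lose, and none of their alternatives lost it. Of 39 alternative arm ratio differences, 2 changed direction and the 2 over all 12 libraries passed 0.05, which 3 libraries a group cannot reach, and of 45 alternative counts of called miRNAs, 37 were within 1.5 times the main count. The higher level of miR-31-5p in AsPC-1 and the higher arm ratio in AsPC-1 kept their direction under every alternative, from 0.65 (total counts) to 1.92 (upper quartile) for miR-31-5p in the controls. So did the knockdown changes of both arms and of the arm ratio in AsPC-1. Other values changed sign with scaling, which moved the median LFC, or single libraries, where the cause was not tested. With upper-quartile factors, the line difference of miR-31-3p was 0.82 in controls and 0.72 in knockdown libraries, both called, its change on knockdown in PANC-1 was 0.022, and the difference of the miR-31-5p changes was 0.037. With total counts, the line differences of miR-31-3p were -0.44 and -0.38, both called, the miR-31-5p change in PANC-1 was -0.10, and the differences of the changes were 0.22 for miR-31-5p and 0.061 for miR-31-3p. With TMM factors set without the 10 most abundant miRNAs, the line difference of miR-31-3p was 0.026 in controls and -0.059 in knockdown libraries, and the difference of the miR-31-5p changes 0.0018. The latter was 0.16 with DESeq2 size factors in edgeR, 0.16 in the DESeq2 Wald test and 0.029 with at least 10 counts in every library. That filter, which tests fewer miRNAs, called 303 between the lines in controls, against 519. In the fit over all 12 libraries, the miR-31-3p line difference was 0.048 in controls and -0.12 in knockdown libraries, and PANC-1 knockdown had 67 calls against 121. The arm ratio differed by 1.18 between the lines over all 12 libraries, with controls paired by number or not.

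Leaving out 1 library at a time gave, for the change on knockdown, 0.087 to 0.24 for miR-31-5p in AsPC-1, -0.051 to 0.115 for miR-31-5p and -0.115 to 0.058 for miR-31-3p in PANC-1, and -0.011 to 0.16 for the PANC-1 arm ratio. It gave -0.17 to 0.021 for the miR-31-3p line difference in controls and -0.084 to 0.11 for the difference of the miR-31-5p changes. Calls ranged from 24 (without AsPC-1 knockdown library 1) to 102 (without AsPC-1 control library 1) in AsPC-1, where they numbered 31 without knockdown library 3. In PANC-1 they ranged from 55 (without knockdown library 3) to 129, and numbered 68 without knockdown library 2.

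Control and knockdown libraries of a line share only a number: deviations of same-numbered libraries correlated at -0.19, -0.11 and 0.09 in AsPC-1 and at 0.119, 0.033 and 0.125 in PANC-1. With the replicate block, 29 miRNAs were called in AsPC-1 against 57, and 153 in PANC-1 against 121, and miR-31-5p changed by 0.15 and 0.05. The split of higher and lower calls depended on the scaling: in PANC-1 it was 70 and 51 under TMM, 65 and 29 with upper-quartile factors and 26 and 117 with total counts, in AsPC-1 35 and 22 under TMM and 25 and 45 in the fit over all libraries, and between the lines in controls 226 and 293 under TMM and 345 and 200 with upper-quartile factors.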
